A study of Mus musculus with 9 samples.

Results

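Among the transcripts that embryonic mouse dorsal root ganglia (DRG) express at E18.5, the transient receptor potential (TRP) channel genes that sensory neurons are known for were examined: Trpv1, Trpv2, Trpa1, Trpm8, Trpm2, Trpm3, Trpm4 and Trpc1. They were chosen by name, with earlier results of these data known but no threshold on their values, and are 8 of the 55247 genes of the count table. RNA was sequenced from WT embryos, from Isl1Cre/+ embryos, in which 1 copy of Isl1 drives Cre recombinase, and from Isl1Cre/+::Meis2LoxP/LoxP embryos, called mutant here, which carry the same Cre allele and LoxP sites around exon 8 of both copies of Meis2. Each genotype had 3 libraries. The Meis2LoxP strain was backcrossed to C57BL/6. The question was which molecular changes accompany the tactile defects that follow the loss of Meis2, a homeodomain transcription factor. Isl1 is expressed in all early sensory neurons and in some other neurons, so the mutant and the Isl1Cre/+ embryos also share a disrupted copy of Isl1, and recombination was not limited to the neurons that express a given TRP channel. Litter, sex and pooling of embryos were not given for the libraries, and p-values measure the spread between these libraries only.

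TRP channels are cation channels of the plasma membrane and of organelles that open on heat, cold, irritants, lipids or intracellular calcium and depolarize the cell. In nociceptors and thermoreceptors they turn a physical or chemical stimulus into the first electrical signal of pain, warmth or cold. Trpv1 is the receptor for capsaicin and noxious heat, Trpm8 the receptor for cold and menthol, and Trpa1 the receptor for mustard oil and other electrophilic irritants. Trpm3 responds to heat and to the steroid pregnenolone sulfate, Trpm2 to ADP-ribose under oxidative stress and to warmth, and Trpm4 passes monovalent cations when intracellular calcium rises. Trpv2 is a close relative of Trpv1, and Trpc1 forms channels together with other TRPC subunits.

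In mm10 with the GENCODE M21 annotation, Trpv1 (ENSMUSG00000005952.15) lies on the forward strand of chromosome 11 from 73234292 to 73261242, and Trpv2 (ENSMUSG00000018507.16) on the same strand of that chromosome from 62574486 to 62600515. Trpm8 (ENSMUSG00000036251.16) lies on the forward strand of chromosome 1 from 88277661 to 88389293, and Trpa1 (ENSMUSG00000032769.5) on the reverse strand of the same chromosome from 14872648 to 14918862. Trpm2 (ENSMUSG00000009292.18) is on the reverse strand of chromosome 10 from 77907722 to 77970563, Trpm3 (ENSMUSG00000052387.16) on the forward strand of chromosome 19 from 22139046 to 22995410, Trpm4 (ENSMUSG00000038260.10) on the reverse strand of chromosome 7 from 45302632 to 45333780, and Trpc1 (ENSMUSG00000032839.13) on the reverse strand of chromosome 9 from 95705082 to 95750375. The exons of Trpv1, Trpv2, Trpa1, Trpm4 and Trpc1 share no base with an exon of another gene. Of the exonic bases of Trpm8, 388 (8.2%) lie opposite the antisense gene 4930453O03Rik, and since the strand setting of the counting is not given in the sources used here, reads from these bases could come from either gene. The shared bases of Trpm3 amount to 351 (1.44%) opposite C330002G04Rik and 277 (1.13%) opposite Gm27151, and those of Trpm2 to 44 and 47 bases of snoRNAs inside it.

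The start regions of Trpv1 and Trpm8 are shown because these genes head the levels given further on. RefSeq (GRCm38.p6) gave windows from 250 bases before to 50 bases after a start site for 6 of the 8 genes, 9 windows in all. The Trpv1 window is chr11:73233899-73234198 on the forward strand and ends upstream of the GENCODE start. The Trpm8 window is chr1:88306485-88306784 on the forward strand and lies inside the GENCODE gene, whose first exon is farther upstream. Capitals mark the Runx core TGTGGT, which was searched on both strands together with the Meis core TGACAG, and these motifs were chosen with the values already known.
Trpv1: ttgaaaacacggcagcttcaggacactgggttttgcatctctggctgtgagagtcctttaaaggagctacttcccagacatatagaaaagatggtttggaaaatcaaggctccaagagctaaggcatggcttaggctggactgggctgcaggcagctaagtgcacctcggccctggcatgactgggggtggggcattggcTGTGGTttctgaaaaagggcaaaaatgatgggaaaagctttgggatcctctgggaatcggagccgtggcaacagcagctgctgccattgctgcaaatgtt
Trpm8: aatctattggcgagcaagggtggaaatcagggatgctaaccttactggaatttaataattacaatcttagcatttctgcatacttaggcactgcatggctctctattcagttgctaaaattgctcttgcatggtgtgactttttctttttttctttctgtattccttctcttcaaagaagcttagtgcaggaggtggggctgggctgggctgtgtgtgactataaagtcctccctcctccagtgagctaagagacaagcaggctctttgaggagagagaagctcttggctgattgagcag
The Meis core was in 0 of the 9 windows of these genes and in 19.2% of all 32851 RefSeq windows. The Runx core was at position -50 of the Trpv1 start site, in a pair of overlapping Trpv2 windows and, on the reverse strand, in 1 Trpm3 window at position -166, against 16.8% of all windows. These are matches of letters in short windows, with no binding measured.

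The libraries held 23854607 to 29103444 counts. Meis2 had 1004 to 1084 counts in the mutant libraries and 2537 to 2919 in the 6 control libraries. It was the single gene with an adjusted p under 0.05 in either comparison of the mutant (quasi-likelihood test of edgeR, adjusted by Benjamini-Hochberg), at log2 fold changes of -1.33 (adjusted p = 0.00779) against WT and -1.23 (adjusted p = 0.00215) against Isl1Cre/+. Of 8 sensory neuron genes listed as markers 7 were matched by symbol, and these and the 16 nociceptor and thermoreceptor genes passed the filter on low counts, while 0 of 8 spinal cord markers passed it. The summed spinal cord markers were low but did not overlap between genotypes, at 4.32 to 7.53 cpm (counts scaled to an equal library size) in WT, 0.948 to 1.46 in Isl1Cre/+ and 1.94 to 3.72 in the mutant, and none was at 0 in every library. WT library 1 and mutant library 2 stood apart, with median rank correlations to the other libraries of 0.981 and 0.979 against 0.991 to 0.995 for the rest. All 6 red cell and all 6 skeletal muscle markers were higher in the mutant than in Isl1Cre/+ and lower in Isl1Cre/+ than in WT under the criterion used here, which 1.67% and 1.4% of all genes met in these comparisons. Between the mutant and WT 0 of 6 and 0 of 6 met it, although every marker of both lists had a positive log2 fold change (medians 0.68 for red cells and 0.92 for muscle). The summed red cell markers ranged from 892 to 2120 cpm in WT, from 341 to 976 in Isl1Cre/+ and from 1200 to 3950 in the mutant, those of muscle from 113 to 871, from 61 to 158 and from 131 to 2040, and no marker of either list was at 0 in every library. The part of these differences in the values of the TRP genes was not tested.

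Trpv1 was the most abundant of these transcripts per length and Trpa1 the least. Counts were scaled to cpm with TMM factors and divided by the kilobases of exon, and over the 9 libraries the level was 13.6 ± 2.22 cpm per kb (SD) for Trpv1, 10.1 ± 1.69 for Trpm8, 7.85 ± 0.367 for Trpv2, 5.66 ± 0.413 for Trpm3, 5.06 ± 0.506 for Trpc1, 2.05 ± 0.182 for Trpm2, 1.21 ± 0.101 for Trpm4 and 0.268 ± 0.038 for Trpa1. The order was the same in the 3 genotypes. Not every step of it was larger than the spread between libraries. Trpv1 and Trpm8 did not overlap in WT (14.1 to 16.9 against 7.33 to 11.4 cpm per kb) or in the mutant (11.2 to 11.8 against 7.62 to 11), but did in Isl1Cre/+ (12 to 17 against 9.56 to 12.3). Trpm8 and Trpv2 overlapped in WT and in the mutant, and Trpm3 and Trpc1 in all 3 genotypes, while the other neighbouring genes were apart in each genotype. Per kilobase of the longest coding transcript in place of all exons, Trpv2 (12.1) stood above Trpm8 (11.5) and Trpm3 stood at 11.2, its longest coding transcript having 12305 of its 24437 exonic bases.

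**Figure D1:**
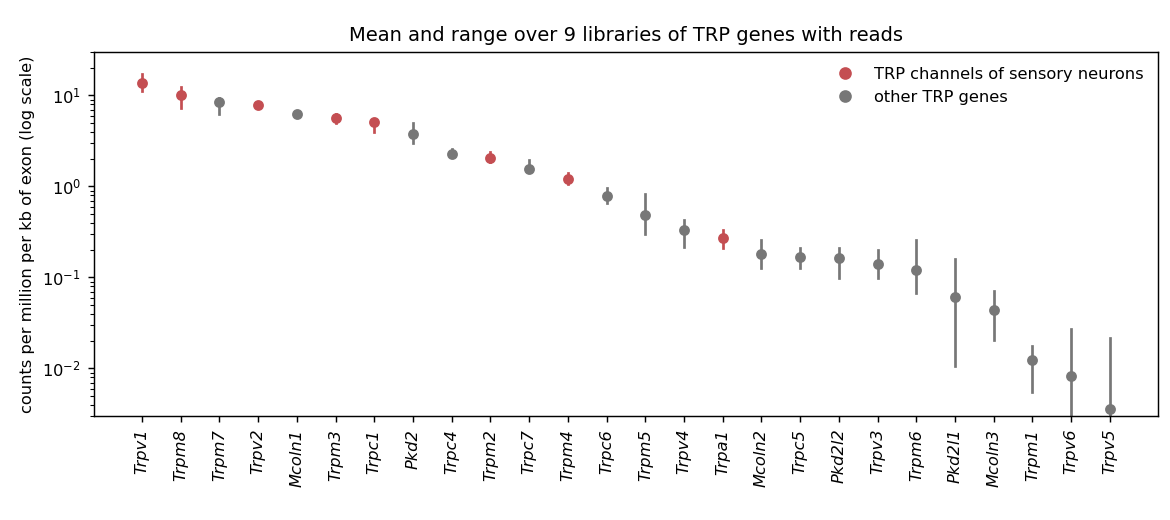
Levels of the TRP genes shown here, all with reads in at least 1 library, in cpm per kb of exon on a log axis, as the mean (point) and the range (line) over 9 libraries, with the TRP channels of sensory neurons in red and the other TRP genes in grey. Trpv1 and Trpm8 stand highest at 13.6 and 10.1, and Trpa1, detected in all 9 libraries, lies low at 0.268. Lines that reach the lower edge include libraries with 0 reads.

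Other TRP genes were measured at similar levels. Trpm7, a channel with a kinase domain that carries magnesium, had 8.51 ± 0.948 cpm per kb over the 9 libraries, and Mcoln1, the lysosomal mucolipin channel, 6.26 ± 0.298. Per kilobase of the longest coding transcript, Mcoln1 stood at 22.9, above Trpv1 at 14.9, and Trpm7 at 13.5, above Trpm8 at 11.5. Of the 20 further TRP genes, 8 passed the filter of at least 100 counts in at least 1 library, and Trpc2 had 0 counts in every library. None of the 8 met the criterion in any of the 3 comparisons, which is near the share of all genes that did (0.318%, 1.67% and 1.4%, in the order that follows), and their median log2 fold changes were 0.045 in the mutant against WT, 0.024 in the mutant against Isl1Cre/+ and 0.018 in Isl1Cre/+ against WT, beside -0.0094, 0.00029 and -0.0016 for all genes tested.

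Trpv1 was lower in the mutant than in WT. Its counts were 1390, 1771 and 1546 in WT libraries, 1309, 1350 and 1784 in Isl1Cre/+ libraries and 1104, 1139 and 1061 in mutant libraries. Scaled to cpm, WT stood at 52.1, 62.4 and 53.4, Isl1Cre/+ at 44.3, 48 and 62.6 and the mutant at 41.3, 43.1 and 43.3, with means of 56 ± 5.59, 51.7 ± 9.67 and 42.6 ± 1.11 (SD, n = 3). The 3 mutant libraries were close together and below all 6 control libraries, of which Isl1Cre/+ library 1 came nearest. Of all 13200 genes tested, 0.568% had their 3 mutant libraries below all 6 controls. The log2 fold change of the mutant against WT was -0.39 (SE 0.0954, 95% interval -0.62 to -0.17), or 0.761 times the WT level, with an unadjusted p of 0.00387 by edgeR's quasi-likelihood test, the second smallest of all genes in this comparison, and an adjusted p of 1. An exact permutation test of the cpm, two-sided, gave p = 0.1, the smallest that 3 against 3 libraries allow. Trpv1 met the study's criterion, an unadjusted p under 0.05 with at least a 1.2-fold difference, which 0.318% of all genes met in either direction and 0.258% as lower genes. An adjusted p under 0.05 was reached by 0.00758% of genes, Meis2 alone. In this comparison 49 of the 13200 genes had an unadjusted p under 0.05, fewer than the share of 0.05 that equal groups give on average. The rank of Trpv1 by p is therefore a description and no measure of rarity. Libraries of the mutant and WT did not overlap for 2.76% of genes, Trpv1 being the only one of the 7 tested TRP genes to be among them.

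**Figure D2:**
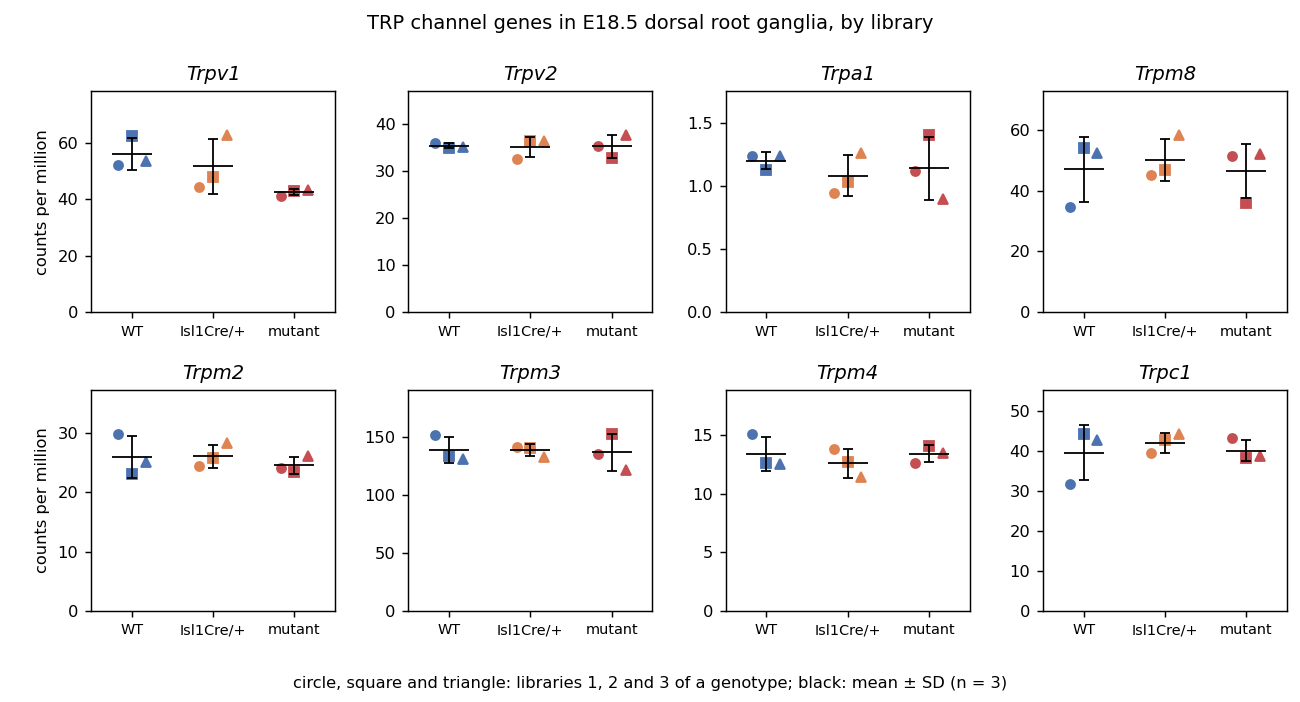
Levels of the 8 TRP genes in cpm by genotype, with the axes from 0, a symbol for each library and black bars for the mean ± SD of 3 libraries. The mutant libraries of Trpv1 lie between 41.3 and 43.3 cpm and the control libraries between 44.3 and 62.6, whereas the genotypes overlap for the other genes.

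Against Isl1Cre/+, the control that shares the Cre allele, Trpv1 did not meet the criterion. The log2 fold change was -0.28 (SE 0.125, 95% interval -0.57 to 0.013), with an unadjusted p of 0.0588 and an adjusted p of 1 by the same test, and the libraries did not overlap. In this comparison 1.67% of all genes met the criterion, 0.00758% had an adjusted p under 0.05, and 7.65% did not overlap. Isl1Cre/+ library 3, the highest of all 9, moved this value most, since without it the log2 fold change was -0.12 (unadjusted p of 0.139 by edgeR). Without Isl1Cre/+ library 1 it was -0.38 (unadjusted p of 0.0163), so that the criterion was met. Trpv1 differed by a log2 fold change of -0.10 between Isl1Cre/+ and WT (SE 0.15, 95% interval -0.46 to 0.25, unadjusted p of 0.507 by edgeR), with overlapping libraries. This value too rested on single libraries, at -0.27 (unadjusted p of 0.0627 by edgeR) without Isl1Cre/+ library 3 and -0.0016 without Isl1Cre/+ library 1. There 1.4% of all genes met the criterion, 0% had an adjusted p under 0.05 (DESeq2 counted 1 gene, and 236 genes had an unadjusted p under 0.05 with edgeR), and 5.66% did not overlap. The comparisons share libraries and are not independent of each other.

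**Figure D3:**
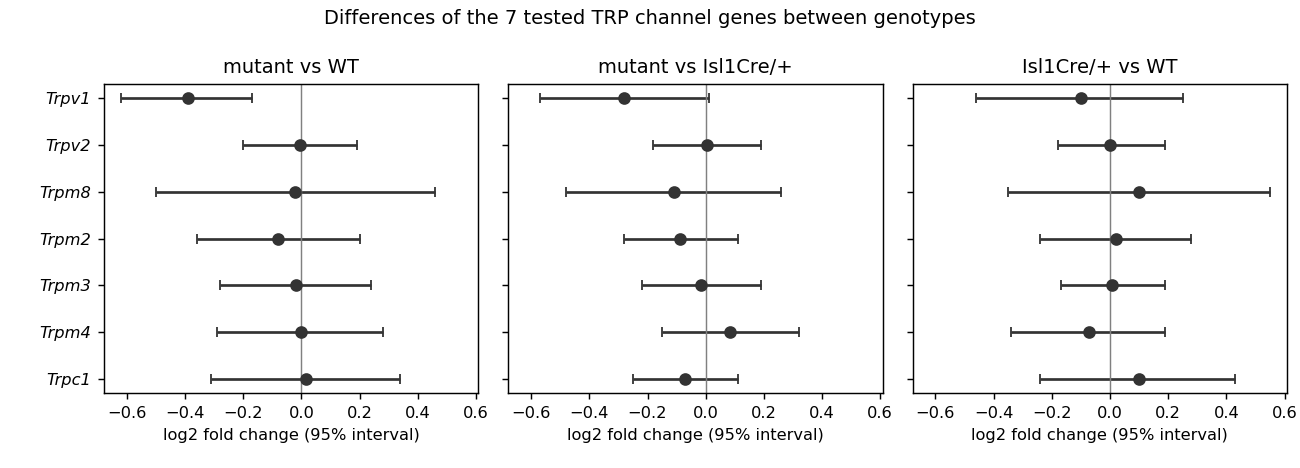
Log2 fold changes of the 7 tested TRP genes with 95% intervals in the 3 comparisons, from fits of each pair of genotypes. The interval of Trpv1 in the mutant against WT, -0.62 to -0.17, is the only one of the 21 that does not include 0.

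The difference of Trpv1 from WT was present under each of 16 other ways of processing, with log2 fold changes from -0.45 to -0.31 and unadjusted p from 0.00144 to 0.0189, and adjusted p from 0.975 to 1. Without WT library 1 and mutant library 2, the libraries that stood apart, it was -0.45 (unadjusted p of 0.00256 by edgeR), a setting chosen after seeing the data. Against Isl1Cre/+ the criterion was met under 3 of 15 (no filter on low counts, scaling by library size alone, and without Isl1Cre/+ library 1). The counts of 16 and 15 leave out the setting with no fold change requirement, which for a single gene repeats the fit of the text.

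**Figure D4:**
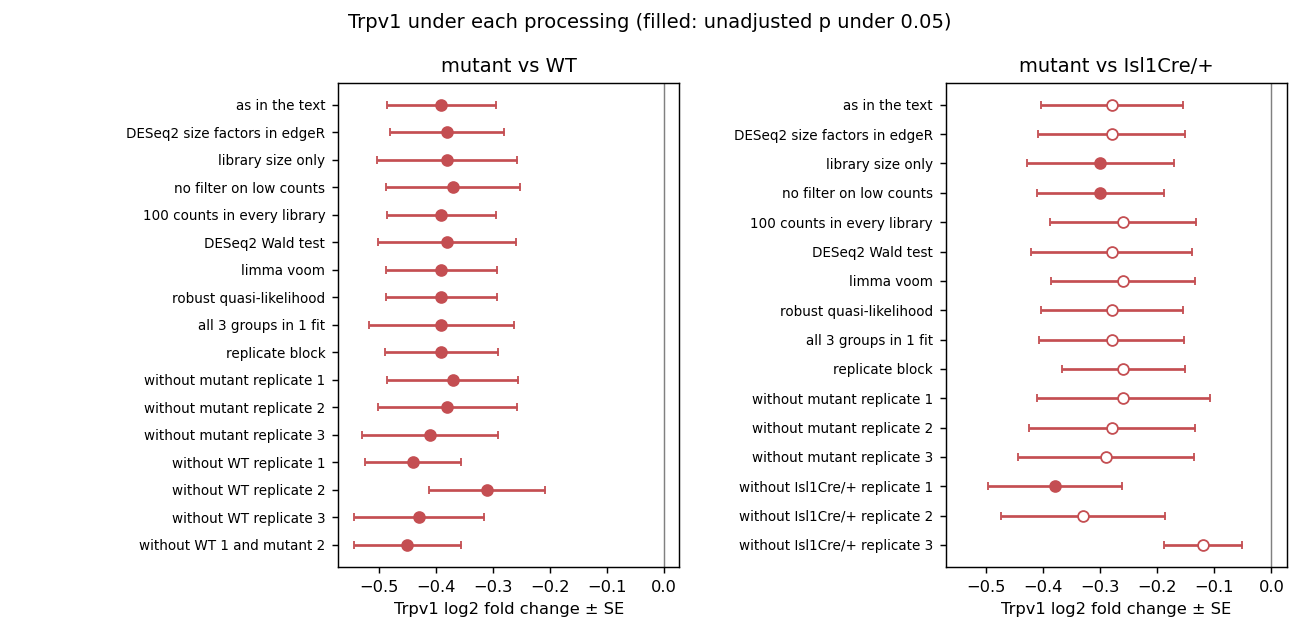
Log2 fold change of Trpv1 ± SE in the mutant against WT (left) and against Isl1Cre/+ (right) under the processing of the text and 16 (left) or 15 (right) others, with filled points for an unadjusted p under 0.05. All points on the left are filled and lie between -0.45 and -0.31, while 3 on the right are filled and the value nearest 0, -0.12, is that without Isl1Cre/+ library 3.

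No gene of the nociceptor and thermoreceptor markers met the criterion. All 16 passed the filter on low counts, and 0 were called in the mutant against WT, against Isl1Cre/+ or between the controls, where 0.318%, 1.67% and 1.4% of all genes were, so that 0 of 16 is near the share of all genes. The medians were -0.0018, -0.043 and 0.046. Among these markers, Scn10a, the sodium channel of nociceptors, had a log2 fold change of -0.015 (SE 0.126) against WT, P2rx3, an ATP receptor, -0.085 (SE 0.109), and Calca, the precursor of the peptide CGRP, 0.19 (SE 0.0912). These genes were picked for their roles after the values were seen. The summed level of the 16 genes ranged from 5870 to 7030 cpm in WT, from 6160 to 6530 in Isl1Cre/+ and from 5400 to 6980 in the mutant. As a percent of the summed counts of these genes, Trpv1 was 0.74, 0.996 and 0.911 in the WT libraries, 0.72, 0.735 and 1.01 in the Isl1Cre/+ libraries and 0.591, 0.798 and 0.704 in the mutant libraries. The mean was lowest in the mutant (0.698 ± 0.103, against 0.882 ± 0.13 in WT and 0.821 ± 0.161 in Isl1Cre/+; SD, n = 3), but on this scale mutant library 2 lay above WT library 1 and the genotypes overlapped. Prph, which encodes the intermediate filament peripherin, made up 43.4% of the sum in WT library 1 and 30.8% to 35.4% in the others. With Prph left out, which was chosen after seeing the data, Trpv1 was 1.31% to 1.45% of the sum in WT, 1.1% to 1.49% in Isl1Cre/+ and 0.895% to 1.18% in the mutant, so that the mutant overlapped Isl1Cre/+ but not WT. In whole ganglia, fewer cells that express a gene and less RNA per cell cannot be told apart. The 7 general sensory neuron genes were all negative in the mutant against WT, with a median of -0.10 and 1 meeting the criterion, Isl1 itself (log2 fold change -0.48), and Isl1 had the same value in Isl1Cre/+ against WT. Against Isl1Cre/+, 2 of the 7 were positive in the mutant, the median was -0.046 and none met the criterion.

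Trpm8, the cold receptor, varied widely between libraries of a genotype. Its counts were 926, 1534 and 1517 in WT libraries, 1335, 1320 and 1655 in Isl1Cre/+ libraries and 1368, 953 and 1273 in mutant libraries. On the cpm scale the libraries were at 34.7, 54 and 52.4, at 45.2, 46.9 and 58.1, and at 51.2, 36 and 52, so that the low values were those of WT library 1 and mutant library 2. The log2 fold change was -0.021 (SE 0.206, 95% interval -0.50 to 0.46) in the mutant against WT, -0.11 (SE 0.158, -0.48 to 0.26) against Isl1Cre/+ and 0.10 (SE 0.192, -0.35 to 0.55) between the controls. Without both of these libraries the value against WT was -0.04 (SE 0.0689), again in a setting chosen after seeing the data. The interval for the mutant against WT spans 0.706 to 1.38 times the WT level, and a difference of the size seen for Trpv1 would lie inside it.

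Trpa1, the irritant receptor, had few counts, namely 33, 32 and 36 in WT libraries, 28, 29 and 36 in Isl1Cre/+ libraries and 30, 37 and 22 in mutant libraries. It did not pass the filter and was the single gene of the 8 not tested. The variance between libraries of a genotype was 0.738 times that of counting alone. With the filter lifted, the log2 fold changes were -0.051 (SE 0.277), 0.06 (SE 0.262) and -0.13 (SE 0.242) for the mutant against WT, the mutant against Isl1Cre/+ and Isl1Cre/+ against WT. Each of these values is smaller than its SE.

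Trpv2 varied least between libraries among the 7 tested TRP genes. Its libraries had 960, 992 and 1015 counts for WT, 962, 1021 and 1035 for Isl1Cre/+ and 945, 865 and 919 for the mutant, with means of 35.3 ± 0.551, 35.1 ± 2.16 and 35.2 ± 2.41 cpm (SD, n = 3). The log2 fold change of the mutant against WT was -0.0056 (SE 0.0845, 95% interval -0.20 to 0.19) and the interval against Isl1Cre/+ was -0.18 to 0.19. The mutant level therefore lay within 0.869 to 1.14 times that of WT at this level of confidence, an interval that does not reach the estimate for Trpv1.

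Of the TRPM channels besides Trpm8, Trpm3 had the most counts. WT libraries had 4060, 3800 and 3796 counts, Isl1Cre/+ libraries 4198, 3972 and 3776 and mutant libraries 3636, 4059 and 2990, and its log2 fold change was -0.019 (SE 0.112, 95% interval -0.28 to 0.24) in the mutant against WT and -0.015 (SE 0.0879) against Isl1Cre/+. Trpm2 had 799, 655 and 726 counts, 719, 725 and 806, and 648, 619 and 642 in the same order of genotypes. In raw counts its mutant libraries were below all the others, but they were less deeply sequenced, and in cpm (23.4 to 26.2 against 23.1 to 29.9 in the controls) the genotypes overlapped. The log2 fold changes of Trpm2 were -0.08 (SE 0.119) and -0.087 (SE 0.0834) against WT and Isl1Cre/+. Trpm4 had 403, 357 and 363 counts for WT, 408, 358 and 324 for Isl1Cre/+ and 337, 372 and 330 for the mutant, with log2 fold changes of -0.0022 (SE 0.121) and 0.082 (SE 0.101). Trpc1 had 847, 1257 and 1239 counts for WT, 1162, 1204 and 1259 for Isl1Cre/+ and 1154, 1014 and 947 for the mutant, with log2 fold changes of 0.016 (SE 0.138) and -0.072 (SE 0.076). None of these 4 genes met the criterion in any comparison, and their genotypes overlapped in each. Of all genes, 0.318% met it in the mutant against WT, 1.67% in the mutant against Isl1Cre/+ and 1.4% in Isl1Cre/+ against WT. In the same order, 2.76%, 7.65% and 5.66% of all genes did not overlap, so that none of 4 is near these shares.

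Proteins that bind, anchor or modulate TRP channels were taken as a list of 28 genes, of which 25 were tested. In the mutant against WT 1 of the 25 met the criterion, as lower, and the median was -0.022. None met it in the mutant against Isl1Cre/+ or between the controls (medians -0.045 and 0.033), near the 1.67% and 1.4% of all genes that did. The gene was Whrn, which encodes whirlin, a scaffold protein of hair cell stereocilia that also binds Trpv1. WT libraries had 519, 500 and 441 counts of it, Isl1Cre/+ libraries 454, 430 and 424 and mutant libraries 320, 360 and 370. Its log2 fold change was -0.36 (SE 0.139, unadjusted p of 0.0334 by edgeR) against WT, -0.16 (SE 0.101, p of 0.149) against Isl1Cre/+ and -0.19 (SE 0.101, p of 0.105) between the controls, so that the Isl1Cre/+ mean lay between the others. The share of 1 in 25 stands beside 0.318% of all genes and rests on a single gene. Pirt, a membrane protein that binds Trpv1 and Trpm8, was at 0.00035 (SE 0.107) against WT, and Tmem100, which links Trpa1 to Trpv1, at 0.066 (SE 0.138). Akap5, the lowest of the list after Whrn, was at -0.22 (SE 0.097, unadjusted p of 0.0542 by edgeR) against WT and did not meet the criterion.

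The TRP genes differed in how much they varied between libraries. Over all 9 libraries, genotypes together, the coefficient of variation of the cpm was 16.7% for Trpm8, 16.3% for Trpv1, 14.2% for Trpa1, 10% for Trpc1, 8.87% for Trpm2, 8.29% for Trpm4, 7.3% for Trpm3 and 4.67% for Trpv2. The variance within genotypes, a measure that rises with the count, was 2.78 (Trpv2) to 46.7 (Trpm8) times that of counting for the 7 tested TRP genes, beside a median of 8.02 over all genes tested. WT library 1 was 0.41 below the mean of its genotype for Trpm8 and 0.30 below it for Trpc1 on the log2 scale, and 0.13 and 0.18 above it for Trpm3 and Trpm4. Mutant library 2 was 0.34 below for Trpm8 and 0.061 below for Trpc1, and 0.17 and 0.073 above for Trpm3 and Trpm4. Across the 9 libraries, which share these 2, Trpm8 followed Trpc1 (Pearson's r = 0.832, Spearman's rho = 0.85) and ran against Trpm4 (r = -0.883, rho = -0.933) and Trpm3 (r = -0.868, rho = -0.833), as a description of these libraries. For Trpv1 the same libraries deviated by -0.10 and 0.017, and its widest deviation was 0.29, in Isl1Cre/+ library 3. The cause of the shared deviations was not tested.

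**Figure D5:**
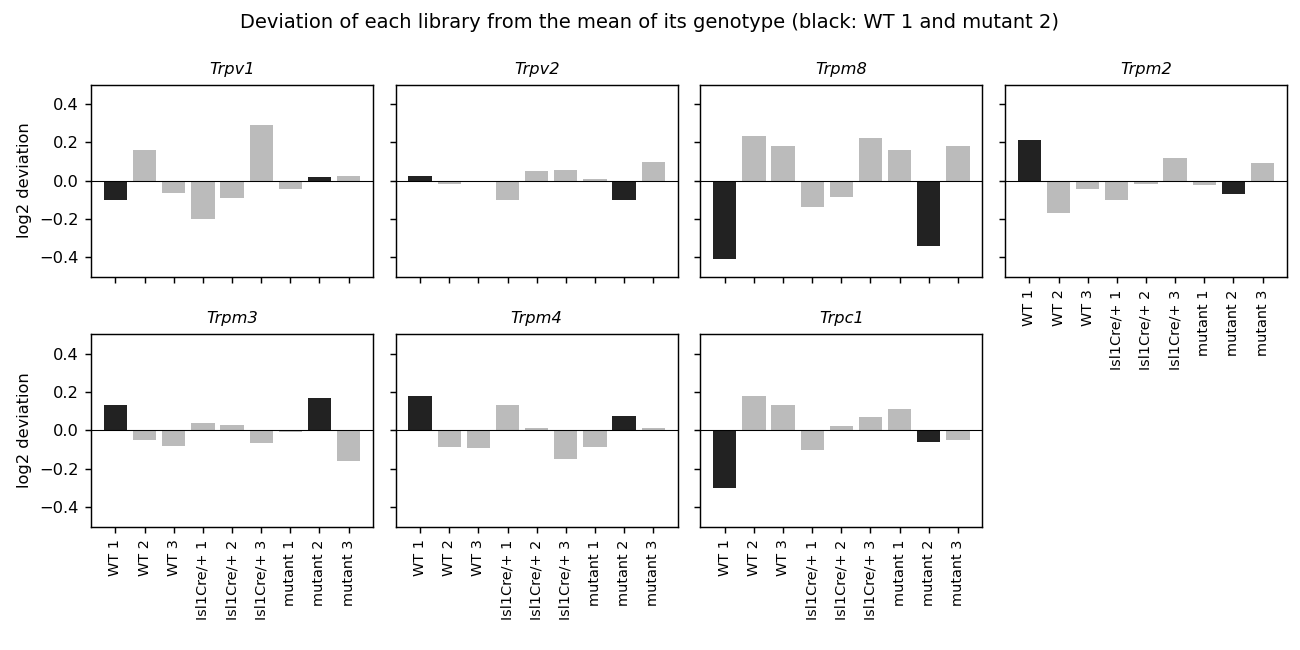
Log2 deviation of each library from the mean of its genotype for the 7 tested TRP genes, with WT library 1 and mutant library 2 in black. In both, Trpm8 is low (-0.41 and -0.34) and Trpm3 and Trpm4 are high, while Trpv1 deviates most in Isl1Cre/+ library 3 (0.29).

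Of the 13200 tested genes, those whose log2 cpm ran most like Trpv1 over the 9 libraries were Dnajc28 (Pearson's r = 0.926, Spearman's rho = 0.833), Th, which encodes tyrosine hydroxylase (r = 0.922, rho = 0.817), and 1700086L19Rik (r = 0.917, rho = 0.9). Th was at 17.7, 18.1 and 16.5 cpm for WT, 13.4, 15.4 and 17.6 for Isl1Cre/+ and 13.8, 13.9 and 14.4 for the mutant. It is made by sympathetic neurons and by some sensory neurons, and the summed level of 6 sympathetic markers was 6.29 to 18.8 cpm in WT, 4.21 to 6.47 in Isl1Cre/+ and 4.64 to 11.2 in the mutant. For Trpm8 the genes were Cd44, a hyaluronan receptor (r = 0.969, rho = 0.95), Senp5, a SUMO protease (r = 0.966, rho = 0.967), and Asns, asparagine synthetase (r = 0.964, rho = 0.85). For Trpa1, whose counts were few, they were Tmem243 (r = 0.95, rho = 0.95), the transcription factor Maf (r = 0.923, rho = 0.9) and Zfp804b (r = 0.914, rho = 0.867). With 9 libraries and so many genes, values of this size describe likeness only.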

How the data were processed

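RNA was measured by sequencing in DRG of E18.5 embryos, in 3 libraries of each of 3 genotypes, grouped by their labels. The authors made libraries from poly(A) RNA, with unique molecular identifiers to remove duplicates, aligned single-end reads to mm10 with STAR 2.7.10 and counted those mapped uniquely per gene with HTSeq 0.6. The deposited counts are not normalized. The annotation release and the strand option are not given in the sources used here. The other columns of the table hold the authors' own limma results for each pair of genotypes and were not used.

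Tests covered the 13200 genes that reached 100 counts in any library, 7 of the 8 TRP genes among them. Each pair of genotypes was fitted alone with TMM and edgeR 4.0.16 in R 4.3.3, by a quasi-likelihood test, two-sided, and p-values adjusted by Benjamini-Hochberg over these genes. The criterion, an unadjusted p under 0.05 with at least a 1.2-fold difference, is that of the study. SEs are those of the log2 fold change from this fit, and 95% intervals use its degrees of freedom. The procedure was tested on simulated data. Of 55247 identifiers, 54855 matched GENCODE M21 (GRCm38) in identifier and version, from which exon lengths come. Libraries of a genotype had chi-square values of 12.6 to 129 per degree of freedom between them, where counting error alone gives about 1, so none was a duplicate, and for abundant genes this spread limits precision more than depth.

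The TRP genes, marker lists and motifs were chosen with earlier results of these data known. Named were the 8 TRP genes, the genes of 3 lists (other TRP genes, partners, nociceptor and thermoreceptor genes) that met the criterion, the 3 other TRP genes highest in cpm per kb, and for Trpv1, Trpa1 and Trpm8 the 3 genes most alike. Not every gene that this rule picks is reported here, but the counts of the lists include all of them. Akap5, Scn10a, P2rx3, Calca, Pirt, Prph, Tmem100 and Trpc2 were named after their values were seen. Of the marker lists, those for glia, macrophages, endothelial cells, fibroblasts, cartilage and mechanoreceptors served to check the tissue. In the mutant against WT, 0 of 8, 0 of 7, 0 of 6, 0 of 6, 0 of 4 and 1 of 13 tested genes met the criterion. In the mutant against Isl1Cre/+ these were 0, 0, 1, 0, 2 and 1, and between the controls 0, 0, 3, 0, 0 and 0, beside 0.318%, 1.67% and 1.4% of all genes in the 3 comparisons. Sympathetic markers gave 0, 1 and 2 of 3 tested in the same order of comparisons. Each of these counts other than 0 is a larger share of its list than of all genes.

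Alternatives were DESeq2's size factors, library size only, no filter, 100 counts required in every library, DESeq2 1.42.0 with its Wald test, limma voom (limma 3.58.1), robust quasi-likelihood, all genotypes in 1 fit, the replicate number as a block, no fold change requirement, and each library left out in turn. Leaving out WT library 1 and mutant library 2 together, and Prph from the sum of nociceptor genes, was added after seeing the data.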

Additional observations from a re-analysis of the deposited data

How the results depend on the processing

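With 3 libraries per genotype, an adjusted p under 0.05 was reached by Meis2 alone in the fits of the text, and the interval of Trpm8 in the mutant against WT is wide enough to hold a value like that of Trpv1. Under the alternatives (17 in the mutant against WT and 16 in the other comparisons, which 1 of the libraries left out together does not enter) the count of TRP genes meeting the criterion stayed at 1 in the mutant against WT and at 0 between the controls, and in the mutant against Isl1Cre/+ it went from 0 to 1 with library size only, with no filter and without Isl1Cre/+ replicate 1, each time through Trpv1 (log2 fold changes -0.30, -0.30 and -0.38 with unadjusted p of 0.0491, 0.0164 and 0.0163 by edgeR). Leaving out each library gave Trpv1 -0.44 to -0.31 against WT, -0.38 to -0.12 against Isl1Cre/+ and -0.27 to -0.0016 between the controls. The other values that changed sign belong to genes that met the criterion in no setting, and the cause was not tested.

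In the mutant against WT, leaving out each library gave log2 fold changes of -0.054 to 0.065 for Trpv2, -0.20 to 0.15 for Trpm8, -0.16 to 0.032 for Trpm2, -0.085 to 0.058 for Trpm3, -0.048 to 0.091 for Trpm4 and -0.12 to 0.10 for Trpc1. Against Isl1Cre/+ these were -0.046 to 0.061 for Trpv2, -0.20 to 0.048 for Trpm8 and -0.10 to 0.062 for Trpm3. Between the controls they were -0.032 to 0.055 for Trpv2, -0.10 to 0.22 for Trpm8, -0.052 to 0.11 for Trpm2, -0.026 to 0.054 for Trpm3 and -0.059 to 0.19 for Trpc1. Without WT library 1 and mutant library 2 together, the mutant against WT gave 0.063 for Trpv2, 0.072 for Trpm2, 0.059 for Trpm4 and -0.084 for Trpc1, the mutant against Isl1Cre/+ 0.048 for Trpm8, and the controls -0.10 for Trpm8, -0.0083 for Trpv2 and -0.059 for Trpc1. In the mutant against WT, Trpv2 was at 0.0061 and Trpm4 at 0.011 with DESeq2's size factors, 0.0059 and 0.011 with the Wald test, 0.0089 and 0.018 with library size only, and 0.018 and 0.023 with no filter, where Trpm3 was at 0.0055, and Trpm4 was at 0.0035 with limma voom and at 0.00057 with 100 counts in every library. Against Isl1Cre/+, Trpv2 was at -0.019 with library size only and -0.013 with no filter, and Trpm3 at 0.0013 with 100 counts in every library. Between the controls, Trpv2 was at -0.0065 with that filter, -0.0015 with limma voom and -0.01 with all genotypes in 1 fit, where Trpm3 was at -0.0038.

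Deviations of same-numbered libraries correlated at -0.6 to 0.39, with 4 of 9 over 0.1, and those of libraries numbered 3 at 0.16, 0.38 and 0.16. With 3 libraries per genotype and litters not given, these values cannot tell whether the replicate numbers pair the libraries. With the replicate block, Trpv1 was at -0.39 (unadjusted p of 0.00833 by edgeR) against WT and -0.26 (unadjusted p of 0.0532) against Isl1Cre/+, Trpm4 at 0.0015 against WT and Trpv2 at -0.00082 between the controls, and no TRP gene changed its call.

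Over all genes, the counts meeting the criterion were 42, 221 and 185 in the mutant against WT, the mutant against Isl1Cre/+ and Isl1Cre/+ against WT. Of the 32546, 32358 and 32526 genes tested with no filter they were 408, 1028 and 845, and of the 12090 with 100 counts in every library 35, 139 and 104, where the text has 13200. In the mutant against Isl1Cre/+ the count was 360 with no fold change requirement. Leaving out 1 library gave 40 to 132, 167 to 407 and 102 to 340, with the highest counts without WT library 1, mutant library 1 and WT library 1, and leaving out WT library 1 and mutant library 2 together gave 182 in the mutant against WT and 340 between the controls. An adjusted p under 0.05 was reached by at most 1 gene in the mutant against WT, by up to 10 in the mutant against Isl1Cre/+ (DESeq2) and by up to 5 between the controls (without WT library 3).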
